A study of Mus musculus with 2 samples.

Results

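The 7 hemoglobin genes described here were the 4 adult chains Hba-a1, Hba-a2, Hbb-bs and Hbb-bt and the 3 embryonic chains Hba-x, Hbb-y and Hbb-bh1, among 32285 genes in the matrix. All 7 symbols were found, among them Hbb-bs (ENSMUSG00000052305), Hba-a1 (ENSMUSG00000069919), Hba-x (ENSMUSG00000055609) and Hbb-y (ENSMUSG00000052187). The set was selected on measured values, because hemoglobin UMIs in the ILC2-like cells of litter DEX-1 had stood above those of the other litters in these same data, so the levels in that class are given as a description. The data came from 1 droplet library of fetal lung cells from wild-type C57BL/6J mice at gestation day 18, sorted as live CD45+ cells that lacked lineage markers and carried ST2, the IL-33 receptor of group 2 innate lymphoid cells (ILC2s). The lineage antibodies of the sort included TER119, which stains red cells. Mothers had been given dexamethasone (DEX), a synthetic glucocorticoid, at 1.3 µg/ml in drinking water or PBS from gestation day 12, and fetuses of the same dam were pooled. The litters were DEX-1 with 8 fetuses, DEX-2 with 9, PBS-1 with 5 and PBS-2 with 8, each stained with its own hashtag antibody, so the litter was the replicate and each group had n = 2. The labels give each litter its own dam, whereas a legend in the study reads as a single dam per group, and in that case the litters of a group would not be independent. A unique molecular identifier (UMI) marks 1 captured RNA molecule, and CPM below means UMIs per 1000000 gene UMIs of the cells summed.

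After filtering, 7268 barcodes carried a single hashtag (singlets), 736 carried several and 2405 carried none. The singlets numbered 1737 to 1890 per litter and held 18665955 to 23660294 gene UMIs per litter, with median depths of 7458 to 8325 UMIs per cell. The median count of the litter's own hashtag was lowest in DEX-1, at 437, and was 826 to 1274 in the other litters. Markers placed 3225 singlets in basophil or mast-like clusters and 2074 in ILC2-like clusters, and 1969 fell to other or unnamed clusters. Epithelial-like (469), endothelial-like (225) and mesenchymal-like (187) singlets, which the CD45 gate should have removed, were among them.

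Hemoglobin carries oxygen in red cells as a tetramer of α-type and β-type globin chains, each holding a haem group. In mice the α-type genes lie together on chromosome 11, with embryonic Hba-x (ζ) before the adult pair, and the β-type genes lie on chromosome 7, with embryonic Hbb-y (εy) and Hbb-bh1 (βh1) and adult Hbb-bs and Hbb-bt. Primitive red cells of the yolk sac make the embryonic chains first, and definitive red cells from the fetal liver make the adult chains, so late gestation blood is dominated by the latter.

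The promoter windows of the embryonic and adult genes are printed because the report turns on which of these genes had RNA in the same barcode. Each is the 120 bases before the RefSeq transcript start on build GRCm38.p6, read 5′ to 3′ on the gene's strand, with the words CACCC and CCAAT on either strand and the TATA-type words ATATAA or CATAAA in capitals. The word GATAA was also searched, every word was searched on both strands, and no marked words overlapped. Hba-x lies at chr11:32276480-32276599 on the plus strand, Hba-a1 at chr11:32283552-32283671 on the plus strand, Hbb-y at chr7:103853208-103853327 on the minus strand, Hbb-bs at chr7:103827929-103828048 on the minus strand and Hbb-bt at chr7:103813924-103814043 on the minus strand.
Hba-x: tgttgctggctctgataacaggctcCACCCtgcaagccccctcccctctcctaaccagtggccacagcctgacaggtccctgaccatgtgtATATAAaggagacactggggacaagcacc
Hba-a1: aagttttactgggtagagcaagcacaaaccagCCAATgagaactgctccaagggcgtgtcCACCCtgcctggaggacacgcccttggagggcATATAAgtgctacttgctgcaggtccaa
Hbb-y: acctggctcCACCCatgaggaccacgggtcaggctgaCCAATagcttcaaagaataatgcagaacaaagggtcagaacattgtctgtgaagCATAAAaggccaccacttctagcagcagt
Hbb-bs: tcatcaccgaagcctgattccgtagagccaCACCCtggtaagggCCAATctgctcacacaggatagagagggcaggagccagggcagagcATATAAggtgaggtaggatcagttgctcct
Hbb-bt: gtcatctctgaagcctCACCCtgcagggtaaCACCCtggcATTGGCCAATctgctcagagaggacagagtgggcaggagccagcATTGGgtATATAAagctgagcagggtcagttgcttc
All 5 windows and that of Hba-a2 held CACCC, which 31.7% of the 32851 windows of the same length held, and a TATA-type word, which 9.16% held. The TATA-type word began between positions -31 and -28 from the start in each. CCAAT, present in 21.3% of all windows, was found in the windows of the 4 adult genes and of Hbb-y and not in that of Hba-x. GATAA, present in 10.5%, was found in that of Hba-x and in none of the other 5. The 300-base RefSeq entries of Hba-a1 and Hba-a2 shared a run of 297 bases, whereas those of Hbb-bs and Hbb-bt shared at most 14.

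Over all 10648 barcodes the 7 genes had 36120 UMIs, or 0.0303% of the 119146805 gene UMIs. Hbb-bs, the more abundant adult β chain, held 20325 of them (56.3%), and Hbb-bt, the other adult β chain, held 3497 (9.68%). The adult α chains Hba-a1 and Hba-a2 held 6974 (19.3%) and 5037 (13.9%). The embryonic chains were rare, with 264 UMIs of Hba-x in 6 barcodes, 22 of Hbb-y in 10 and 1 of Hbb-bh1 in 1. Hba-a1 and Hba-a2 differ at 1 of 429 coding bases and Hbb-bs and Hbb-bt at 1 of 444, and 86.9% of the 50-base windows of the Hba-a2 transcript are found in that of Hba-a1, so the split within each pair is uncertain. Identity between the embryonic and adult chains was lower, at 62.0% of coding bases for Hba-x and Hba-a1 and 74.3% for Hbb-y and Hbb-bs.

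Hemoglobin RNA sat in few barcodes. No hemoglobin UMI was seen in 9748 barcodes, 678 had 1, 78 had 2, 21 had 3 or 4 and 8 had 5 to 9. Barcodes with at least 10 hemoglobin UMIs, called hemoglobin-rich here, numbered 115 and held 35165 UMIs, 97.4% of the total. The nearest barcodes to that limit had 8 UMIs below it and 10 UMIs on it. The rich barcodes were 44 of the 7268 passing singlets (0.605%, exact 95% interval 0.440 to 0.812), 36 of 736 barcodes with several hashtags (4.89%, 3.45 to 6.71) and 26 of 2405 with none (1.08%, 0.707 to 1.58). Intervals here and below cover counting error only. Another 8 lay among the 13 barcodes under the minimum of 200 genes and 1 above the mitochondrial limit. The summed level was 149 CPM in singlets, 303 CPM in barcodes with several hashtags and 779 CPM in those with none.

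**Figure D1:**
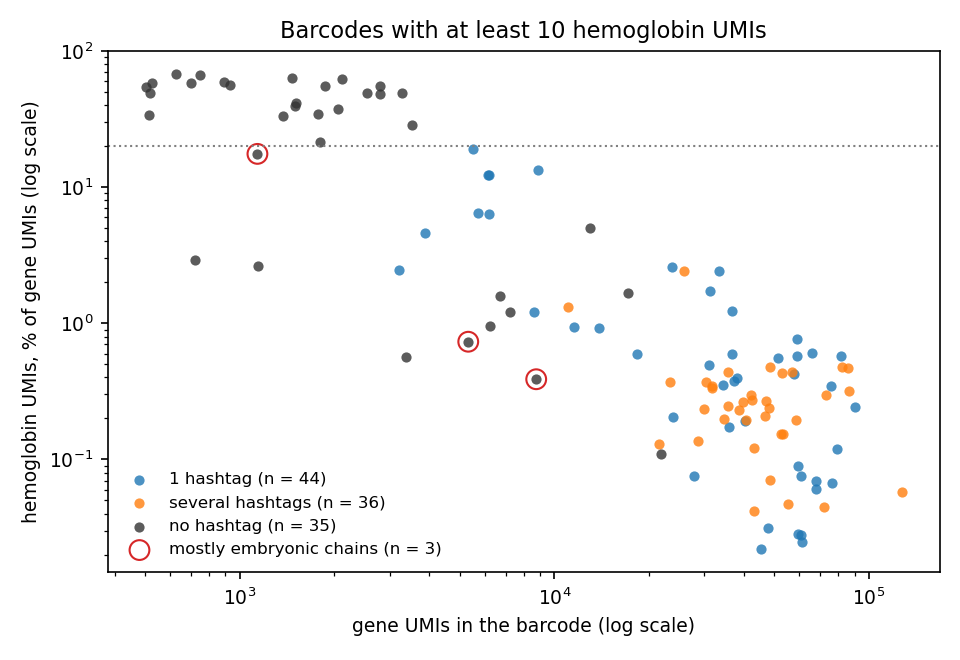
The 115 hemoglobin-rich barcodes, each a point, by their gene UMIs (x axis, log scale) and the percent of those UMIs that were hemoglobin (y axis, log scale), coloured by hashtag call. The 23 above the dotted line at 20% carried no hashtag, and the nearest below it, at 19.1%, carried 1. Those with several hashtags lay at or below 2.43%, and circles mark the 3 barcodes with mostly embryonic chains.

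In 23 of the rich barcodes hemoglobin made up at least 20% of the gene UMIs, a limit chosen after the values were seen, with the nearest barcodes at 19.1% and 21.5%. These hemoglobin-dominated barcodes carried no hashtag call, and their highest hashtag count was 55 against a median top count of 759.5 in singlets. That depends on the limit, since the barcode at 19.1% was a DEX-1 singlet with 352 UMIs of its own hashtag. They were small, with a median of 1498 UMIs (502 to 3516) and 274 genes, and 46.5% of their 36349 UMIs were hemoglobin (21.5% to 67.4% per barcode). All 4 adult chains were found in each of the 23, with 9433 UMIs of Hbb-bs, 3333 of Hba-a1, 2423 of Hba-a2 and 1702 of Hbb-bt in all. Of these barcodes 14 passed the filters on genes and mitochondrial RNA.

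Red cell genes were abundant beside the globins in the hemoglobin-dominated barcodes. The sum of 28 red cell genes was 34389 CPM there and 235 CPM in the singlets outside hemoglobin-rich barcodes. The higher CPM was in the dominated barcodes for 24 of the 28. A single UMI there was 27.5 CPM, so genes with few UMIs could count as higher, and Sptb and Tfrc did so on 1 UMI each. For a gene near or under that level in other cells, 0 UMIs there do not show a lower level. The matching share over all genes is not given, so these counts, here and for the lists below, are descriptive. Alas2, the red cell enzyme that starts haem synthesis, had 554 UMIs and was found in 23 of 23, and Fech, which puts iron into haem, had 156 in 19. Bpgm, the enzyme that makes the oxygen-releasing 2,3-bisphosphoglycerate, had 183 UMIs, and Slc4a1, the band 3 anion exchanger of the red cell membrane, had 30. Epor, Car1, Icam4 and Tfr2 had 0 UMIs, among 36349. These CPM values were not tested, because the barcodes belonged to no litter and were defined by globin UMIs.

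Among the other lists, 7 of 9 haem synthesis genes had the higher CPM in the dominated barcodes (21239 against 321 CPM in sum, with Alas1 and Alad at 0 UMIs). Uros and Ppox counted on 1 UMI each. Alas2 alone, which is also in the red cell sum, was at 15241 CPM. Of 13 regulators of globin genes 7 did, among them Nfe2 (7 UMIs), Klf1 (6) and Gata1 (3), each at few UMIs, and Bcl11a and Myb had 0. Of 13 genes for clearing haem and hemoglobin 4 did, which were the ferritin chains Ftl1 (543 UMIs) and Fth1 (341), Blvrb (111), a biliverdin reductase, and the haem transporter Slc48a1 (18). Of 7 other globins only the θ-like pair Hbq1b (5 UMIs) and Hbq1a (2) had a UMI, and neuroglobin, cytoglobin and myoglobin had 0. Of 13 genes of other cells and tissues, used as a reference for free RNA, 0 had the higher CPM, and Sftpc, the surfactant protein C of epithelium, was at 1321 CPM against 22037 CPM in the other singlets.

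Adult β chains outnumbered adult α chains in each kind of rich barcode. Over the 112 rich barcodes other than the 3 with mostly embryonic chains described below, α chains made up 33.3% of the adult UMIs (Wilson 95% interval 32.8 to 33.8). The share was 34.1% (33.4 to 34.8) in the dominated barcodes, 32.0% (31.2 to 32.9) in rich singlets and 32.6% (31.3 to 33.9) in rich barcodes with several hashtags. By litter, it was 34.4% for the rich singlets of DEX-1 and 33.4% for those of DEX-2, and 31.5% for PBS-1 and 29.5% for PBS-2, higher in both DEX litters, but 2 litters against 2 cannot reach a p under 0.333 in an exact permutation test, and the 4 rich singlets of DEX-1 were few. Per barcode, the α share ran from 22.7% to 56.5% in the 73 with at least 100 adult UMIs. Its SD was 6.24 percentage points, where counting alone would give 2.96, so the pooled intervals understate its spread. Hba-a1 held 57.8% of the α UMIs (56.9 to 58.7), and Hbb-bt held 14.6% of the β UMIs (14.2 to 15.1). These are shares of captured UMIs of a 5′ library, not of protein.

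The share of Hbb-bt differed between barcodes by more than counting error. In the 54 rich barcodes with at least 100 β UMIs it ran from 2.79% (Wilson 95% interval 1.20 to 6.37) to 25.6% (20.6 to 31.4), with a median of 14.99%, and 11 of the 54 were below 10%. The SD between barcodes was 5.16 percentage points, where counting alone would give 2.02. The share of Hba-a1 among α UMIs varied less against its counting error, with an SD of 4.62 against 3.60 in 39 barcodes and a range of 48.0% to 67.2%. Summed over the rich singlets of a litter, Hbb-bt held 13.7% for DEX-1 and 15.8% for DEX-2, and 14.3% for PBS-1 and 12.4% for PBS-2. Groups overlapped, and barcodes of a litter share that litter's fetuses.

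**Figure D2:**
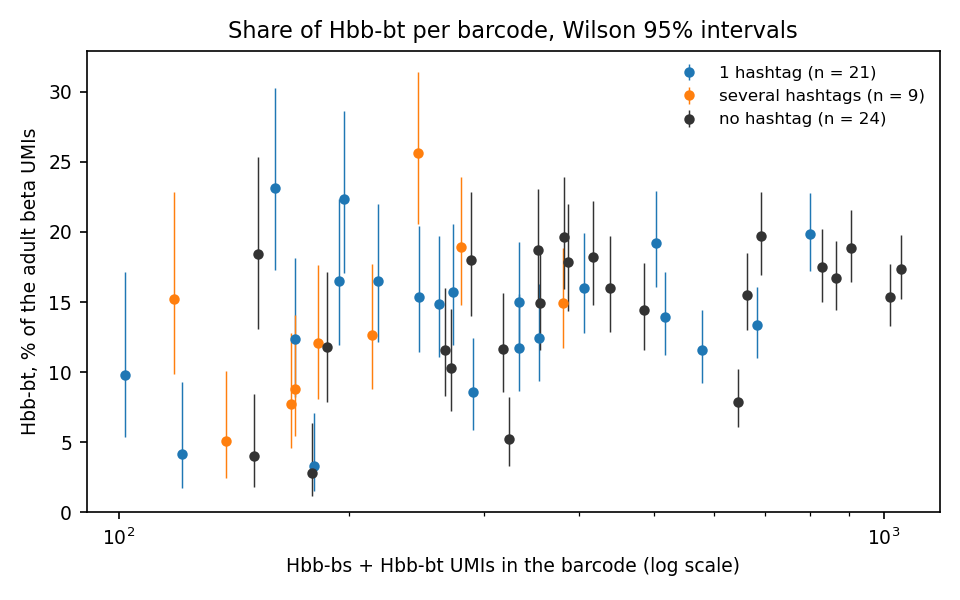
Percent of adult β UMIs that were Hbb-bt (y axis) in each of the 54 rich barcodes with at least 100 β UMIs (x axis, log scale), coloured by hashtag call, with vertical lines for Wilson 95% intervals. Most points lie near the median of 14.99%, and 11 lie below 10%.

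Embryonic chains made up 287 UMIs, 0.795% of all hemoglobin UMIs, in 14 barcodes, and 280 of the 287 were in barcodes with no hashtag. Of these UMIs 271 came from 3 barcodes. The first, in an unnamed cluster of low depth (cluster 6), had 1138 UMIs with 185 of Hba-x, 12 of Hbb-y, the only UMI of Hbb-bh1, 1 each of Hba-a1 and Hba-a2, and 0 of the adult β chains. The second, in the endothelial-like cluster, had 5325 UMIs with 38 of Hba-x and 1 of Hbb-y. The third, in a mesenchymal-like cluster, had 8757 UMIs with 34 of Hba-x. Hba-x thus outnumbered the embryonic β chains 257 to 14 in them. None of the 3 had a UMI of Alas2, where the hemoglobin-dominated barcodes had 32.8 Alas2 UMIs per 1000 hemoglobin UMIs (exact Poisson 95% interval 30.1 to 35.6), and 0 among their 273 hemoglobin UMIs allows up to 13.5 per 1000.

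Embryonic and adult chains were seldom found together. Of the 3 barcodes with mostly embryonic chains the first had 2 adult UMIs and the other 2 had 0. Of the other 112 rich barcodes 1 had an embryonic UMI, a single Hbb-y beside 1012 adult UMIs in a hemoglobin-dominated barcode. In the 44 rich singlets 0 of 11704 hemoglobin UMIs were embryonic, which allows a share of up to 0.0256% at 3 counts. Outside rich barcodes, 6 of the 8 Hbb-y UMIs were in 5 barcodes of cluster 12, and 2 were in barcodes of other clusters. Cluster 12 was an epithelial-like cluster of 169 barcodes led by the club and ciliated cell genes Scgb3a2, Scgb1a1 and Foxj1. The 5 barcodes of cluster 12 with Hbb-y had 0 UMIs of every other hemoglobin gene.

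By litter, the embryonic share of hemoglobin UMIs in singlets was 0.0479% for DEX-1 (1 of 2089 UMIs) and 0.0270% for DEX-2 (1 of 3697), and 0.0617% for PBS-1 (2 of 3240) and 0.0306% for PBS-2 (1 of 3269). DEX and PBS litters overlapped, and the means differed by -0.0087 percentage points, DEX minus PBS (two-sided exact permutation p = 0.667, where 0.333 is the smallest value that 2 litters against 2 allow). All 5 UMIs were Hbb-y. With MULTIseqDemux, another hashtag caller, barcodes with mostly embryonic chains were assigned to litters, and the share became 7.70% in PBS-1 (200 of 2596) and 1.66% in DEX-1 (35 of 2112). The litter given to the embryonic chains therefore depended on the hashtag caller.

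**Figure D3:**
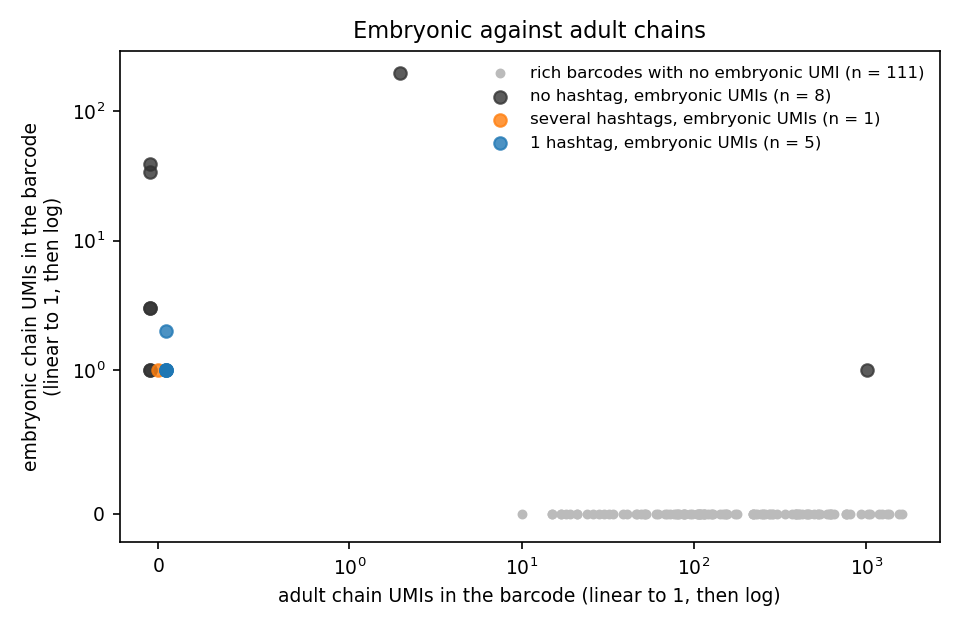
Embryonic chain UMIs (y axis) against adult chain UMIs (x axis) in each barcode that was hemoglobin-rich or had an embryonic UMI, both axes linear to 1 and logarithmic above, with symbols at 0 set slightly apart by hashtag call. Barcodes lie along one axis or the other, and the 1 exception with over 2 adult UMIs held 1012 adult and 1 embryonic UMI.

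Rich barcodes that carried hashtags were mostly deep and lay outside the ILC2-like class. The 44 rich singlets had a median of 37058 gene UMIs against 8001.5 in the other singlets, and hemoglobin was a median of 0.526% of their UMIs. Of all 115 rich barcodes, 61 were in cluster 8, an unnamed cluster with markers of both epithelium and endothelium and a median depth of 29783.5 UMIs; 27 of these had 1 hashtag and 32 had several. The endothelial-like cluster held 16, and 15 with no hashtag were in cluster 18, an unnamed cluster led by Myb, Car1 and Mpo. Among endothelial-like singlets 10 of 225 were rich and the level was 1221 CPM, against 5.20 CPM in epithelial-like and 7.58 CPM in mesenchymal-like singlets, where 0 of 469 and 0 of 187 were rich. These zeros allow shares of up to 0.783% and 1.95% by exact intervals. Doublets within a litter carry 1 hashtag and were not removed, and their part in these values was not tested.

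The genes most enriched in the 44 rich singlets over the other singlets, among 10164 ranked by their ratio of CPM, were again led by red cell genes. Slc4a1 was at least 153-fold higher, with 10 UMIs in 5 barcodes against 0 in the other singlets, for which a floor of 3 UMIs over the group was used. Alas2 was 147-fold higher (126 against 0.856 CPM, found in 26 of 44). Also among the first 10 were Ccdc152 (27.6-fold), Clstn2 (15.1-fold), Scn8a (14.03-fold), Aff2 (12.7-fold), Trpc6 (12.5-fold) and Tafa1 (12.2-fold), found in 6 to 19 barcodes each. The ratio of Alas2 to hemoglobin, summed over barcodes, was lower than in the dominated barcodes. It was 18.9 UMIs per 1000 hemoglobin UMIs (exact Poisson 95% interval 16.5 to 21.5) in rich singlets and 11.4 (8.62 to 14.7) in rich barcodes with several hashtags. Single rich singlets varied, with 47 Alas2 UMIs beside 1058 hemoglobin UMIs in 1 and 0 beside 178 in another, and the intervals leave that spread out.

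Whether hemoglobin differed between litters was examined by class. In ILC2-like cells the summed level was 232 CPM for DEX-1 (1100 UMIs in 553 cells) and 9.44 CPM for DEX-2 (36 in 455), and 14.1 CPM for PBS-1 (55 in 487) and 9.52 CPM for PBS-2 (50 in 579). DEX-1 alone was high, at 24.4 times the median of the other litters. A single barcode held 1058 of the 1100 UMIs (96.2%). Among the other 552 ILC2-like cells of DEX-1 no barcode had more than 2 hemoglobin UMIs, and their level was 8.88 CPM, 0.933 times the median of the other litters.

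That barcode had 5528 gene UMIs in 1677 genes, of which 19.1% were hemoglobin, with 591 UMIs of Hbb-bs, 224 of Hba-a1, 152 of Hba-a2 and 91 of Hbb-bt and no embryonic UMI. It had UMIs of 5 of 9 ILC2 markers, which were Gata3 (4), Rora (2), Il1rl1, Il7r and Icos (1 each), and 352 UMIs of its own hashtag. Of 9 red cell markers it had 1, Alas2, with 47 UMIs, so its mRNA included both ILC2 markers and the red cell haem enzyme.

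In edgeR's quasi-likelihood test of DEX against PBS litters in ILC2-like cells (Benjamini-Hochberg adjusted over all genes), Hbb-bs had a log2 fold change of 4.15 (SE 0.94, adjusted p = 0.0232) and Hba-a1 2.40 (SE 0.64, adjusted p = 0.0591). The other 5 genes were below the expression filter. One of the 2 tested was thus called, where 2.8% of all genes tested were, but the genes were selected on this contrast and the value is descriptive. With rich barcodes left out, Hbb-bs had a log2 fold change of -0.12 (SE 0.37, adjusted p = 0.955) and Hba-a1 -0.66 (SE 0.39, adjusted p = 0.544), and 0 of 2 were called by edgeR, with 0 at an unadjusted p under 0.05, against 2.82% of all genes. The call and direction for DEX against PBS in this class therefore rested on 1 barcode of litter DEX-1.

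**Figure D4:**
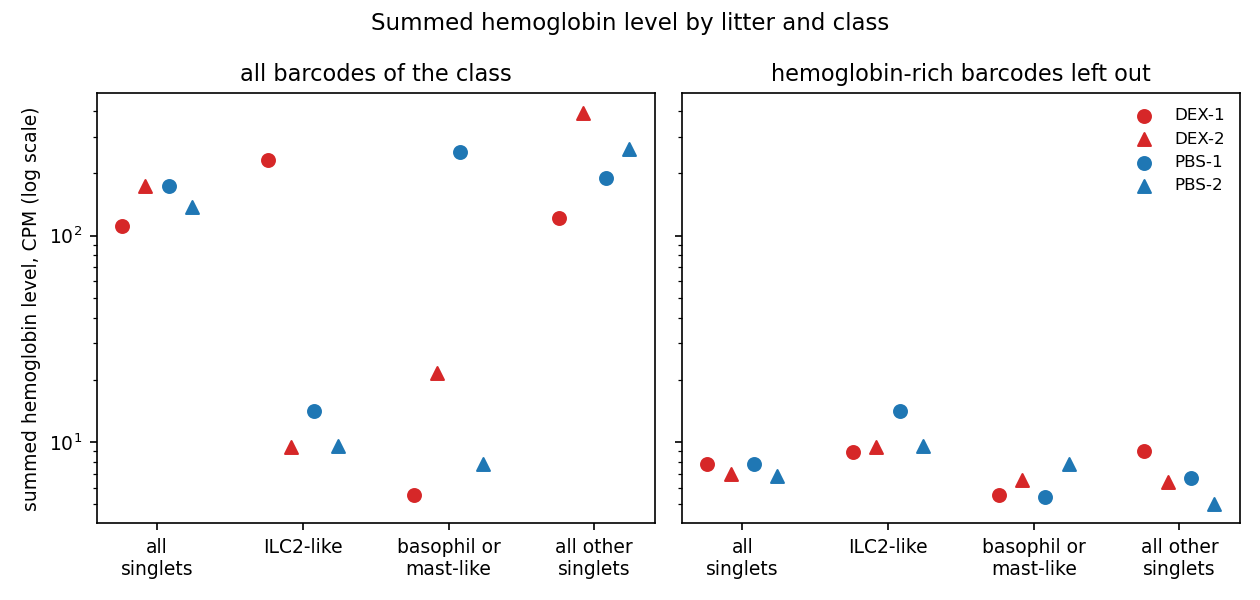
Summed level of the 7 hemoglobin genes in each litter (CPM, log scale) by class, with each point 1 litter, for all singlets of the class on the left and with hemoglobin-rich barcodes left out on the right. DEX-1 is highest in ILC2-like cells and lowest over all singlets, PBS-1 is highest in basophil or mast-like cells, and without rich barcodes every value lies between 5.01 and 14.1 CPM.

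The high litter was another one in the basophil or mast-like class. The level was 5.51 CPM for DEX-1 and 21.5 CPM for DEX-2, and 253 CPM for PBS-1 and 7.82 CPM for PBS-2. In PBS-1, 3 rich barcodes with 761, 392 and 369 hemoglobin UMIs held most of the 1555 UMIs, and in DEX-2 1 barcode held 129 of 185. Without rich barcodes the levels were 5.51, 6.52, 5.38 and 7.82 CPM in that order of litters, and they overlapped between groups. The 3 adult genes that passed the filter had log2 fold changes, DEX over PBS, from -3.08 to -3.03 (SE 1.16 to 1.23), and 0 of 3 were called by edgeR's quasi-likelihood test (Hba-a1 adjusted p = 1.00), where 0% of all genes were. All 3 had an unadjusted p under 0.05, as had 443 of the 11496 genes tested, and DESeq2 called 0 of the hemoglobin genes and 4 genes in all. Without the rich barcodes of this class 1 gene was left for the test, Hbb-bs, at -0.11 (SE 0.31, adjusted p = 1.00).

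Over all singlets DEX-1 was not the highest litter. The level was 111 CPM for DEX-1 (2089 UMIs) and 174 CPM for DEX-2 (3697), and 174 CPM for PBS-1 (3240) and 138 CPM for PBS-2 (3269), so that DEX-1 was the lowest, at 0.642 times the median of the others. PBS-2 was the lowest instead with MULTIseqDemux (106 CPM against 119 CPM for DEX-1) and after thinning to 2000 UMIs per cell (80.6 CPM against 151 CPM). Hbb-bs, the most abundant chain, was at 62.3, 97.0, 101 and 84.4 CPM in the same order, and Hba-a1 at 22.9, 33.8, 31.2 and 24.6 CPM. Both groups overlapped for each. Rich singlets numbered 4 for DEX-1 and 12 for DEX-2, and 12 for PBS-1 and 16 for PBS-2. For DEX against PBS, 0 of the 4 adult genes tested were called by edgeR (0 at an unadjusted p under 0.05, and 0 by DESeq2), with log2 fold changes from -0.18 to 0.07 (SE 0.20 to 0.29), where 0.0194% of all genes were called.

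In all other singlets the order was again different, with 122 CPM for DEX-1 and 393 CPM for DEX-2, and 189 CPM for PBS-1 and 264 CPM for PBS-2. The DEX litters were the lowest and the highest of the 4. The 4 adult genes had log2 fold changes of 0.07 to 0.52 (SE 0.45 to 0.49), 0 were called by edgeR (0 at an unadjusted p under 0.05, and 0 by DESeq2), and 0.0141% of all genes were. Single rich barcodes also set the level of small classes, with 801 of 813 hemoglobin UMIs in 1 macrophage or monocyte-like cell and 178 of 193 in 1 B-like cell, both of PBS-2. Among barcodes with several hashtags, those with the DEX-1 tag among their top 2 were rich in 15 of 343 cases (4.37%, exact 95% interval 2.47 to 7.11) and the others in 21 of 393 (5.34%, 3.34 to 8.05), so the intervals overlapped.

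Outside the rich barcodes hemoglobin was at a low level in every class and litter. Over all such singlets the level was 7.83 CPM for DEX-1 and 6.99 CPM for DEX-2, and 7.84 CPM for PBS-1 and 6.84 CPM for PBS-2 (7.37 CPM ± 0.54, SD, n = 4 litters). Groups overlapped, and DEX-1 did not stand apart. With the rich barcodes counted too, a hemoglobin UMI was present in 8.05% of ILC2-like, 5.12% of basophil or mast-like and 7.89% of epithelial-like cells at median depths of 7202.5, 7186 and 17668 UMIs. After thinning to 2000 UMIs per cell (26, 254 and 4 shallower cells left out) the shares were 2.25% (Wilson 95% interval 1.69 to 2.98), 1.75% (1.34 to 2.29) and 1.29% (0.593 to 2.79). These thinned shares rest on 46, 52 and 6 cells with a UMI, and the intervals for ILC2-like and epithelial-like cells overlapped. At full depth and without rich barcodes, the 7 genes were at 10.3 CPM (exact Poisson 95% interval 8.89 to 11.9) in ILC2-like and 5.20 CPM (3.91 to 6.79) in epithelial-like cells. Hba-a1 was at 4.41 CPM (3.48 to 5.50) and 1.25 CPM (0.667 to 2.14), with no overlap of either pair of intervals. The ILC2-like level was not particular to that class. The 7 genes were at 12.0 CPM (8.32 to 16.8) in endothelial-like and 17.3 CPM (9.66 to 28.5) in B-like cells. Hba-a1 was at 3.89 CPM (1.94 to 6.96) and 4.60 CPM (1.25 to 11.8) there. It was at 0.446 to 1.90 CPM in macrophage or monocyte-like, mesenchymal-like and unnamed cells, and had 0 UMIs in 21 muscle or pericyte-like cells. No class here is known to be free of hemoglobin RNA, and whether the low level is expression or free RNA was not tested.

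The low level of Hba-a1 also differed between both main classes. Outside rich barcodes it was at 2.54 CPM for DEX-1 and 4.46 CPM for DEX-2, and 6.92 CPM for PBS-1 and 4.19 CPM for PBS-2 in ILC2-like cells (78 UMIs in all), against 0.972, 1.28, 0.326 and 1.56 CPM in basophil or mast-like cells (29 UMIs). The classes did not overlap over the 4 litters. Hbb-bs was at 3.15 to 3.84 CPM and 3.24 to 4.22 CPM, and Hba-a2 at 0.761 to 1.69 CPM and 0.932 to 1.72 CPM in the same classes, which overlapped. Hbb-bt, with 19 and 13 UMIs, was at 0.761 to 2.05 CPM and 0.313 to 0.652 CPM, which did not overlap, but it fell below the filter and was not called without it (adjusted p = 0.232 with edgeR). In edgeR's quasi-likelihood test of basophil or mast-like against ILC2-like sums with the litter as a block, and with Benjamini-Hochberg adjustment, Hba-a1 had a log2 difference of -1.94 (SE 0.40, adjusted p = 0.000894) and Hbb-bs 0.12 (SE 0.23, adjusted p = 0.676). One of 2 members tested was called, and 65.4% of all genes tested were called in either direction and 32% as lower in the basophil or mast-like class, so a call is common in this comparison. Hemoglobin genes had been kept out of the clustering that made these classes. Their summed UMIs did set which barcodes were left out. Hba-a1 also passed the expression filter only through the ILC2-like sums, where it was high. For both reasons the call of Hba-a1 is descriptive.

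With the rich barcodes kept, neither gene was called between the classes by edgeR (Hba-a1 log2 difference -0.49, SE 0.85, adjusted p = 0.63; Hbb-bs 0.35, SE 1.18, adjusted p = 0.811; 0 at an unadjusted p under 0.05), where 65.3% of all genes were. That fit rested on single litters, with Hba-a1 at 1.38 without DEX-1 (adjusted p = 0.0304) and at -2.52 without PBS-1 (adjusted p = 0.00697). Without rich barcodes the log2 difference of Hba-a1 stayed between -2.21 and -1.43 with each litter left out in turn and was called each time. Rich barcodes were set by the summed UMIs of the hemoglobin genes, so barcodes were left out by the values then tested. Refits of the same sums cannot test that step, and these calls are descriptive. Hba-a1 made up 78.8% of the α UMIs in ILC2-like cells outside rich barcodes (Wilson 95% interval 69.7 to 85.7), 48.3% in basophil or mast-like cells (36.2 to 60.7) and 57.8% in the rich barcodes themselves. Its 78 UMIs lay in 71 of 2073 cells, at most 3 to a cell, and 3 of the 71 cells also had a β UMI and 0 an Hba-a2 UMI. The share was 88.4% (75.5 to 94.9) in barcodes with several hashtags outside the rich ones, where 38 of 43 α UMIs were Hba-a1. On few UMIs, it was 84.6% (57.8 to 95.7) in endothelial-like and 80% (37.6 to 96.4) in B-like cells. In the remaining classes with any α UMI it was 20% to 66.7%. The GENCODE gene model of Hba-a1 begins 161 bases before its RefSeq start and that of Hba-a2 3 bases before, and its part in these counts was not tested. Since most of the Hba-a2 transcript is found in that of Hba-a1, reads of either gene may also have been counted for the other.

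**Figure D5:**
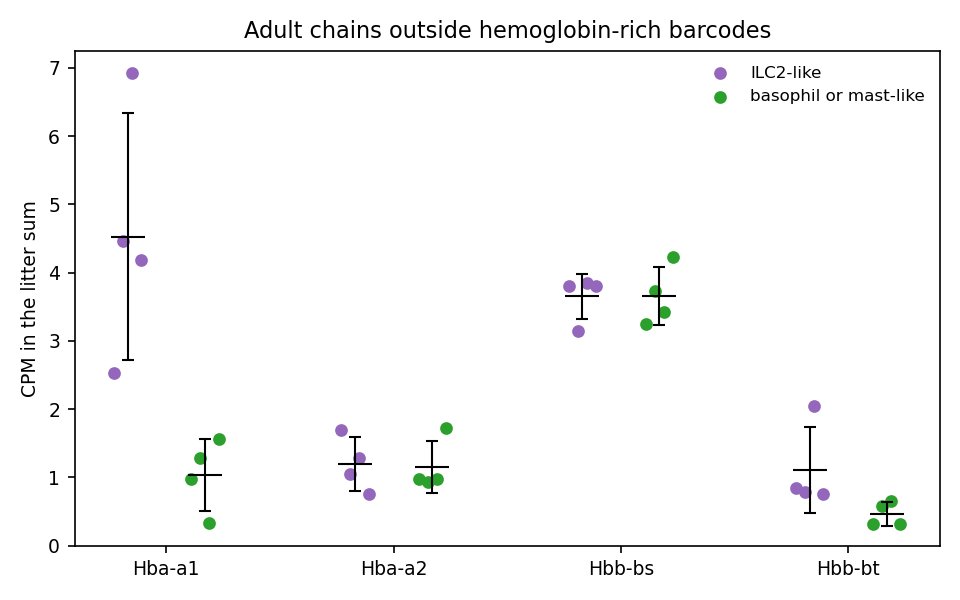
Level of each adult chain (CPM of the litter sum, y axis from 0) in ILC2-like and in basophil or mast-like cells outside hemoglobin-rich barcodes, with 4 litters as points and their mean ± SD as bars. The classes separate for Hba-a1, with 2.54 CPM as the lowest ILC2-like litter and 1.56 CPM as the highest of the other class, and overlap for Hba-a2 and Hbb-bs, while those of Hbb-bt separate at 0.652 and 0.761 CPM.

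Across 32 sums of 8 classes in 4 litters, which share 1 library, Alas2 had the pattern most like the summed hemoglobin level, with a Pearson r of 0.81 among 14976 genes ranked. Also among the first 10 were Bub3, Agfg1, Aplnr, Gimap4, Sh2d3c, Rtl8a, Snx3 and Myct1, with r from 0.76 to 0.71, among them Aplnr, the apelin receptor of blood vessels. With rich barcodes left out r was -0.19 for Alas2 and at most 0.31 for any of the 10. Outside rich barcodes Alas2 had 7 UMIs in ILC2-like cells and 40 in basophil or mast-like cells, or 38.3 and 231 per 1000 hemoglobin UMIs.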

How the data were processed

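Fetal lung cells were profiled with a 10x Genomics 5′ droplet kit that also reads hashtag antibodies. The authors made the deposited matrix with Cell Ranger 7 against mm10, per the labels, and its values are raw UMI counts for 32285 genes and 4 hashtags in 10648 barcodes. The annotation release is not given in the sources used here.

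Barcodes with under 200 genes or over 5% mitochondrial UMIs were left out, and 10409 remained. Litters were called with HTODemux (Seurat 5.3.0, positive quantile 0.99) after the hashtags of the matrix had been matched by number to the antibodies of the labels; MULTIseqDemux and a ratio rule (10 UMIs or more of one tag, and 3 times the runner-up) were the alternatives. Barcodes with several hashtags were set aside as doublets, and no other doublet caller was run. Cells were clustered in scanpy 1.11.5 (2000 variable genes without hemoglobin and red cell genes, 20 components, 15 neighbours, Leiden resolution 0.5), and clusters were named X-like from marker lists. No cell annotation of the study was used here, so classes may differ from its own. Singlet counts were summed per litter and class and tested with edgeR 4.0.16 (quasi-likelihood, TMM, filterByExpr, adjusted p under 0.05), with DESeq2 1.42.0 as an alternative. The p-values for DEX against PBS measure the spread between 2 litters a group. Those between classes measure the spread of the class difference within litters, over 4 litters. The fits were tested on simulated data. That simulation gave every gene the same spread, unlike hemoglobin counts set by single barcodes, so it does not vouch for these genes. Singlets held 82339643 gene UMIs. Precision was limited by the 2 litters a group and by the few rich barcodes that held most hemoglobin UMIs, beside this depth.

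Promoters came from RefSeq tables on GRCm38.p6, with 6 of the 7 genes matched (Hbb-bh1 was not), and gene models from GENCODE on GRCm38. Named genes were the 10 with the highest Pearson r to the summed hemoglobin log level and the 10 with the highest CPM ratio in rich singlets, beside the members and the lists, and some genes that these rules name are not reported here. The members and lists were chosen with earlier results of these data known. The hemoglobin-dominated limit, and the class comparison without rich barcodes run with each litter left out or with no filter, were chosen after seeing the data.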

Additional observations from a re-analysis of the deposited data

Results flagged for a closer look

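Barcodes with no hashtag, which entered no comparison of litters, had 779 CPM of hemoglobin among those passing the filters, above the 174 CPM of litter PBS-1 and the 138 CPM of litter PBS-2. Barcodes with several hashtags, also outside the comparisons, had 303 CPM. Embryonic chains had 280 UMIs in barcodes with no hashtag and 3 in the singlets of the PBS litters.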

How the results depend on the processing

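The litter numbers were treated as names, since the sources used here state no pairing by number. The correlation of deviations between same-numbered litters was -0.04 to 0.19 over 4 class sets, which cannot decide whether they pair. With the replicate block, genes called for DEX against PBS went from 3 to 279 over all singlets, from 298 to 481 in ILC2-like cells and from 2 to 576 in all other singlets, and hemoglobin genes called in ILC2-like cells from 1 to 2. The block turned Hbb-bt over all singlets to -0.011 (0.016 without it) and Hbb-bs in all other singlets to -0.10. DESeq2 called 247, 105, 4 and 58 genes in all singlets, ILC2-like, basophil or mast-like and other singlets (3, 298, 0 and 2 with edgeR), and fits with no filter 881, 516, 115 and 725. Hemoglobin genes called in ILC2-like cells were 0 with DESeq2, 4 with no filter and 0 without rich barcodes, and 0 to 4 with a litter left out (0 without DEX-1). With no filter 4 were called in basophil or mast-like cells, 1 in all other singlets and 1 between classes. Between classes 0 were called with rich barcodes kept (0 to 2 with a litter left out) and 1 without them (1 with any litter left out). The fits without them left out barcodes by the UMIs of the genes tested. Without rich barcodes the log2 fold changes were -0.23 for Hba-a1 and 0.16 for Hbb-bs over all singlets and -0.66 and -0.12 in ILC2-like cells. MULTIseqDemux gave 0.19 for Hbb-bs over all singlets and the ratio rule for hashtags -0.050 for Hba-a2. The log2 ratio of DEX-1 to the median of the other litters, -0.64 over all singlets, was -0.31 with MULTIseqDemux, -0.31 after thinning to 2000 UMIs and 0.16 without rich barcodes; in ILC2-like cells it was 4.61, 5.35 after thinning and -0.10 without rich barcodes. At a limit of 5 UMIs DEX-1 had 7 rich barcodes, and at 50 UMIs PBS-2 had 10. With a litter left out, log2 fold changes over all singlets ran from -0.25 to 0.33 for Hba-a1, -0.35 to 0.30 for Hba-a2, -0.54 to 0.12 for Hbb-bs and -0.49 to 0.39 for Hbb-bt. In ILC2-like cells they ran from -0.25 to 3.20 for Hba-a1 and -0.25 to 5.05 for Hbb-bs, in basophil or mast-like cells from -4.53 to 0.78, -4.33 to 0.50 and -4.44 to 1.01 for Hba-a1, Hba-a2 and Hbb-bs, and in all other singlets from -0.71 to 0.97, -0.74 to 0.97, -1.01 to 0.68 and -0.71 to 1.16 for Hba-a1, Hba-a2, Hbb-bs and Hbb-bt. Between classes they ran from -2.52 to 1.38 for Hba-a1 and -1.75 to 3.53 for Hbb-bs. The difference in embryonic share ran from -0.0243 to 0.00687 percentage points. A lone litter left in a group was assumed to vary like the others. The causes were not tested. With 2 litters a group, 1 or 2 embryonic UMIs a litter and 1 library, small differences could not be measured.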

Other observations

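Red cell genes differed in how closely they kept to hemoglobin. Slc4a1 had 0 UMIs in the 7224 singlets outside hemoglobin-rich barcodes and 1 in the other barcodes with no hashtag, whereas Klf1, Car1 and Icam4 had 651, 3340 and 1318 UMIs in those singlets. Hmox1, the haem-degrading enzyme, was at 21.2 CPM in the singlets outside rich barcodes, and the haptoglobin gene Hp was at 145 CPM there. Hmox1 had 0 UMIs in the hemoglobin-dominated barcodes, where 1 UMI was 27.5 CPM, so that 0 does not show a lower level.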
